A study of Mus musculus with 6 samples.

Results

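The genes described here are 10 chemokine ligands that skin mast cells can make: Ccl1, Ccl2, Ccl3, Ccl4, Ccl7, Ccl9, Ccl12, Cxcl1, Cxcl2 and Cxcl10. They were taken by symbol from the 47643 genes of the count table, and all 10 were found. The study sequenced poly(A) RNA from mast cells sorted from mouse skin, in 3 embryonic and 3 adult libraries. The embryonic cells came from E16.5 skin and were sorted as CD45+ F4/80- CD64- ckit+ ST2+; the submitters give them a yolk sac origin, in its hemogenic endothelium. The adult cells, described as definitive, were sorted as CD45+ F4/80- CD64- ckit+ Fcer1+. Both groups came from Cdh5CreERT2 mice, in which the endothelial gene Cdh5 drives a tamoxifen-inducible Cre recombinase, and both had received 4-hydroxytamoxifen (4OHT) at embryonic day 7.5. Whether the lineage label was part of the sort is not stated, and adult age is given only as adult. Skin of both groups was digested with enzymes, and adult skin also lost its epidermis in a further Dispase step. Age, described origin, the last sort marker and that step differed together between the groups and cannot be told apart. The labels do not say whether the libraries came from separate animals, and if they did not, the spread behind every p-value is technical. The comparison asks how the 2 mast cell populations differ in the RNA of these secreted signals.

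Chemokines are small secreted proteins that steer leukocytes along concentration gradients through G protein-coupled receptors. Activated mast cells transcribe many of them, through factors such as NF-kB, AP-1 and NFAT, and the short-lived messages are then degraded by RNA-binding proteins. In skin they call in monocytes through CCR2, neutrophils through CXCR2, and T cells, macrophages and dendritic cells through receptors such as CCR1, CCR8 and CXCR3.

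Total counts in genes were 34122162 to 46778093 in the embryonic and 40662062 to 49813523 in the adult libraries. As a sum, mast cell markers were abundant in all 6 libraries: 13 markers summed to 126146 to 137820 CPM in the embryonic and 64533 to 67504 CPM in the adult libraries. CPM here are counts scaled by a library's TMM-adjusted total, so that they add up to about the same sum in each. Of the 15111 genes tested, 63.0% had an adjusted p under 0.05 (edgeR's quasi-likelihood test, Benjamini-Hochberg adjustment), 31.2% higher in embryonic cells and 31.7% higher in adult cells, so a call by itself sets no gene apart from the rest.

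Promoter windows are printed for 5 of the ligands because they let motifs be compared between genes that differed, as Ccl1 and Cxcl1 did, and genes whose difference did not pass the test, as Cxcl2 and Cxcl10. RefSeq windows on GRCm38.p6 were matched for 7 of the 10 genes, and the 250 bases before each start site were used. None was matched for Ccl2, Ccl4 and Ccl7, so the genes with the largest differences, Ccl2 and Ccl7, were not examined for motifs. The windows printed are from the matched genes. These printed windows are Ccl1 at chr11:82179813-82180062 (minus strand), Ccl3 at chr11:83649379-83649628 (minus), Cxcl1 at chr5:90890995-90891244 (plus), Cxcl2 at chr5:90903649-90903898 (plus) and Cxcl10 at chr5:92348890-92349139 (minus). Each is written 5′ to 3′ on the gene's strand, and capitals mark every motif match, with overlapping matches merged.
Ccl1: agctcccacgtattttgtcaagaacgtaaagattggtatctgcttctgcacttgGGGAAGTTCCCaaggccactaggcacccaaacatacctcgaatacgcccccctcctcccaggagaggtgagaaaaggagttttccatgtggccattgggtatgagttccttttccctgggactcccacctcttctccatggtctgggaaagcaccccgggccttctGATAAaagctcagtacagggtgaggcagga
Ccl3: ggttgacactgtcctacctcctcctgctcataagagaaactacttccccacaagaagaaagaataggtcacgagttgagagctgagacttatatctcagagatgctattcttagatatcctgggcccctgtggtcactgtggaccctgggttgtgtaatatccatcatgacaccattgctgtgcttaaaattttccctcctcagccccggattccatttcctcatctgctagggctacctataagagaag
Cxcl1: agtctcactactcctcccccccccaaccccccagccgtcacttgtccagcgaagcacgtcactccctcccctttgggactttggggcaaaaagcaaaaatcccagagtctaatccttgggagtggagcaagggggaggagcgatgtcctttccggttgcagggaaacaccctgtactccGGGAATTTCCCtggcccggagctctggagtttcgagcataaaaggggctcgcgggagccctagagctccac
Cxcl2: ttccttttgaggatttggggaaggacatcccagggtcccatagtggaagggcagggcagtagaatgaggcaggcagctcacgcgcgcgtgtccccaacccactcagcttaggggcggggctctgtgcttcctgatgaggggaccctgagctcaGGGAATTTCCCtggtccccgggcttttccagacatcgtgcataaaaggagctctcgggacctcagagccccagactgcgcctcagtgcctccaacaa
Cxcl10: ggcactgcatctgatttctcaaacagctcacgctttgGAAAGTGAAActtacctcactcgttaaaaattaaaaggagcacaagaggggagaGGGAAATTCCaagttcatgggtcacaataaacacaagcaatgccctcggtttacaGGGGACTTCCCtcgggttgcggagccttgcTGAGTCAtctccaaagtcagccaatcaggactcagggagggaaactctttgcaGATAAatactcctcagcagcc
Motifs were searched on both strands: the NF-kB site, AP-1 as TGA and TCA around any 1 base, GATA as GATAA, STAT as TTCNNNGAA and, by name, the interferon-stimulated response element. An NF-kB match was present in 5 of the 7 windows, those of Ccl1, Ccl9, Cxcl1, Cxcl2 and Cxcl10, and in 7.25% of 32851 promoter windows of the same length. Cxcl1 and Cxcl2 held the same NF-kB word, GGGAATTTCC, with its first base at -71 and -97 from the start site, and its overlapping reverse-strand match. The Cxcl10 window alone held matches to 4 of the motifs: NF-kB, AP-1, GATA and the interferon-stimulated response element, the last of which was present in 2.98% of windows. AP-1 words were found for Ccl9 and Cxcl10 (6.75% of windows) and GATA words for Ccl1 and Cxcl10 (22.6% of windows). No STAT word was found in the 7 windows, against 7.02% of all windows, and the Ccl3 and Ccl12 windows held none of the 5 motifs. Of the members with an NF-kB match, Ccl1 was higher in embryonic cells and Cxcl1 in adult cells, while Ccl9, Cxcl2 and Cxcl10 did not pass the test. A match describes letters in the window and was not tested as a binding site.

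Of the 10 chemokines, 9 passed the filter on low counts. Ccl2, Ccl7, Ccl3 and Cxcl1 were higher in adult cells, Ccl1 was higher in embryonic cells, and Ccl4, Ccl9, Cxcl2 and Cxcl10 did not pass the test. These are 4 of 9 higher in adult cells, where the share over all tested genes was 31.7%, and 1 of 9 higher in embryonic cells, where it was 31.2%. The libraries of the 2 groups did not overlap for these same 5 genes, 4 of 9 with adult cells higher (35.5% of all tested genes) and 1 of 9 with embryonic cells higher (34.5%). Ccl9 and Cxcl1 passed the filter without reaching its level in 1 embryonic library each, and Ccl12 did not pass it. The median log2 fold change, embryonic over adult, was -1.19 for the 9 tested members and -0.02 for all tested genes. Without embryonic library 3, Ccl4, Ccl9 and Cxcl2 were also called, which made 7 members higher in adult cells.

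**Figure D1:**
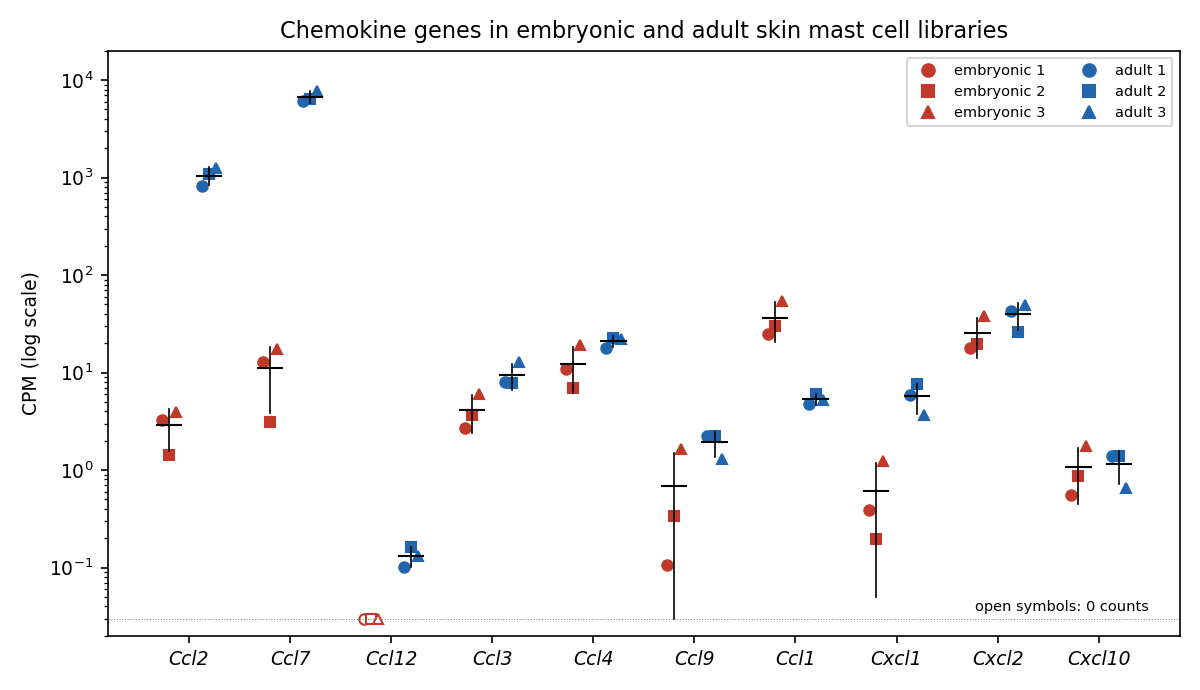
CPM of the 10 chemokine genes on a log axis in the 3 embryonic (red) and 3 adult (blue) libraries; long bars are means, vertical bars are the SD (n = 3; that of Ccl9 in embryonic cells runs below the axis and ends at the dotted line), and open symbols stand for 0 counts. Ccl2 and Ccl7 lie furthest apart between the groups, Ccl1 is the one gene above its adult values in all embryonic libraries, and embryonic library 3 is the highest embryonic point for 9 genes.

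The largest differences were in the ligands of CCR2, the receptor that draws monocytes into tissue. Ccl7 (ENSMUSG00000035373.2, GRCm38 chr11:82045712-82047525, plus strand) encodes MCP-3, which also binds CCR1 and CCR3. It stood at 12.8, 3.14 and 17.3 CPM in embryonic libraries 1 to 3 and at 6083, 6448 and 7776 CPM in adult libraries 1 to 3. The groups lay far apart, and relative to their mean the embryonic libraries varied more than the adult ones. The means were 11.1 ± 7.23 and 6769 ± 891 CPM (SD, n = 3 each), a log2 fold change of -9.24 ± 0.79 (SE), or 607-fold higher in adult cells (edgeR adjusted p = 0.0002).

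Ccl2 (ENSMUSG00000035385.5, chr11:82035571-82037453, plus strand) encodes MCP-1, the best known monocyte attractant. It stood at 3.26, 1.42 and 3.98 CPM in the embryonic and 812, 1094 and 1244 CPM in the adult libraries. As for Ccl7, embryonic library 2 was the lowest and adult library 3 the highest of all. Means were 2.89 ± 1.32 and 1050 ± 219 CPM (SD, n = 3 each), and the log2 fold change of -8.48 ± 0.44 (SE) makes Ccl2 358-fold higher in adult cells (edgeR adjusted p = 5e-06). A fitted fold of at least 100 in this direction was found for 1.11% of tested genes. Both calls held under 15 other settings, with folds of 280 to 422 for Ccl2 and 435 to 802 for Ccl7.

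Ccl12 (ENSMUSG00000035352.3, chr11:82101845-82103400, plus strand) encodes MCP-5, a further CCR2 ligand of the mouse. It had 0 counts in each embryonic library and 5, 7 and 5 counts in the adult libraries, or 0.101, 0.162 and 0.132 CPM. Too few counts were present for a test. Against a floor of 3 counts over the embryonic group (0.0231 CPM, which covers counting error only), the pooled adult level was at least 5.61-fold higher. The large adult values of Ccl2 and Ccl7 were thus not matched in level by Ccl12 in the same libraries.

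Ccl1 (ENSMUSG00000020702.13, chr11:82176657-82305690, minus strand) encodes TCA-3, the ligand of CCR8, and was the single member called in the embryonic direction. It stood at 24.8, 30.2 and 54.7 CPM in the embryonic and 4.75, 6.0 and 5.24 CPM in the adult libraries. The lowest embryonic library lay above the highest adult one, and the adult libraries were close to each other. Means were 36.6 ± 15.9 and 5.33 ± 0.632 CPM (SD, n = 3 each), a log2 fold change of 2.78 ± 0.30 (SE), or 6.87-fold higher in embryonic cells (edgeR adjusted p = 6.2e-05).

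The gene for its receptor was higher in the same direction. Ccr8, found on some T cells and other leukocytes, stood at 760, 745 and 953 CPM in the embryonic and 1.19, 1.62 and 2.63 CPM in the adult libraries. All 3 embryonic libraries were far above every adult one. The log2 fold change was 8.84 ± 0.31 (SE), or 459-fold higher in embryonic cells (edgeR adjusted p = 9.4e-08). Per length, Ccr8 had a mean of 2218 TPM in embryonic cells and 4.93 TPM in adult cells, against 48.2 and 7.13 TPM for Ccl1, so receptor message exceeded ligand message in embryonic cells and the 2 were of like level in adult cells. TPM here is counts per exon length, scaled to the same total in each library. The counted Ccl1 model, with 2369 exon bases, extends to 82305690, far beyond its promoter window at 82179813-82180062. Its exon length may thus include bases outside the message from that start site, and the Ccl1 TPM may be too low.

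Ccl3, Ccl4 and Ccl9, which attract monocytes, macrophages and T cells, differed little by comparison. Ccl3 (ENSMUSG00000000982.5, chr11:83647844-83649355, minus strand) encodes MIP-1 alpha and stood at 2.68, 3.68 and 6.07 CPM in the embryonic and 7.94, 7.73 and 12.7 CPM in the adult libraries. The groups did not overlap, but the gap between embryonic library 3 and adult library 2 was small. The log2 fold change was -1.19 ± 0.33 (SE), or 2.28-fold higher in adult cells (edgeR adjusted p = 0.01).

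Ccl4 (ENSMUSG00000018930.3, chr11:83662584-83664683, plus strand) encodes MIP-1 beta. Its levels of 10.9, 6.94 and 19.0 CPM in the embryonic and 17.8, 22.8 and 21.9 CPM in the adult libraries overlapped, because embryonic library 3 lay above adult library 1. The log2 fold change of -0.76 ± 0.33 (SE) did not pass the test (edgeR adjusted p = 0.076). Without embryonic library 3 the adult level was 2.25-fold higher (edgeR adjusted p = 0.0012). Ccl9 (ENSMUSG00000019122.8, chr11:83572919-83578636, minus strand), a CCR1 ligand also called MIP-1 gamma, stood at 0.107, 0.340 and 1.63 CPM in the embryonic and 2.25, 2.24 and 1.29 CPM in the adult libraries. Here library 3 of each group lay towards the other group, and the groups overlapped. The log2 fold change was -1.46 ± 0.81 (SE; edgeR adjusted p = 0.14), and without embryonic library 3 the adult level was 8.56-fold higher (edgeR adjusted p = 0.0015).

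Cxcl1 and Cxcl2 both signal to neutrophils through CXCR2, and their levels differed from each other in size and in their contrast. Cxcl1 (ENSMUSG00000029380.11, chr5:90891241-90893115, plus strand), or KC, stood at 0.387, 0.198 and 1.25 CPM in the embryonic and 5.85, 7.57 and 3.71 CPM in the adult libraries. All adult libraries lay above all embryonic ones, though embryonic library 3 was several-fold above the other two. The log2 fold change was -3.19 ± 0.61 (SE), or 9.12-fold higher in adult cells (edgeR adjusted p = 0.0018). Without embryonic library 3 the adult level was 18.3-fold higher.

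Cxcl2 (ENSMUSG00000058427.10, chr5:90903871-90905938, plus strand), or MIP-2, was more abundant, at 18.0, 19.6 and 37.9 CPM in the embryonic and 43.1, 26.1 and 49.6 CPM in the adult libraries. The groups overlapped, since embryonic library 3 exceeded adult library 2. Its log2 fold change of -0.65 ± 0.35 (SE) did not pass the test (edgeR adjusted p = 0.15), and without embryonic library 3 the adult level was 2.04-fold higher (edgeR adjusted p = 0.008). Cxcl2 shared 5.84% of its 50-base stretches with Cxcl3, and reads that align to several places were not counted.

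Cxcl10 (ENSMUSG00000034855.13, chr5:92346638-92348889, minus strand), or IP-10, is induced by interferon and attracts T cells through CXCR3. It stood at 0.558, 0.878 and 1.75 CPM in the embryonic and 1.41, 1.38 and 0.658 CPM in the adult libraries. The highest and the lowest of the 6 values were both embryonic, and the means of 1.06 ± 0.618 and 1.15 ± 0.426 CPM (SD, n = 3 each) lay within the spread of the libraries. The log2 fold change was -0.11 ± 0.53 (SE; edgeR adjusted p = 0.86), and its sign turned when any of 4 libraries was left out. Exons of Cxcl10 overlap those of Art3 on the opposite strand over 5.91% of their bases, and without strand those reads cannot be assigned.

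**Figure D2:**
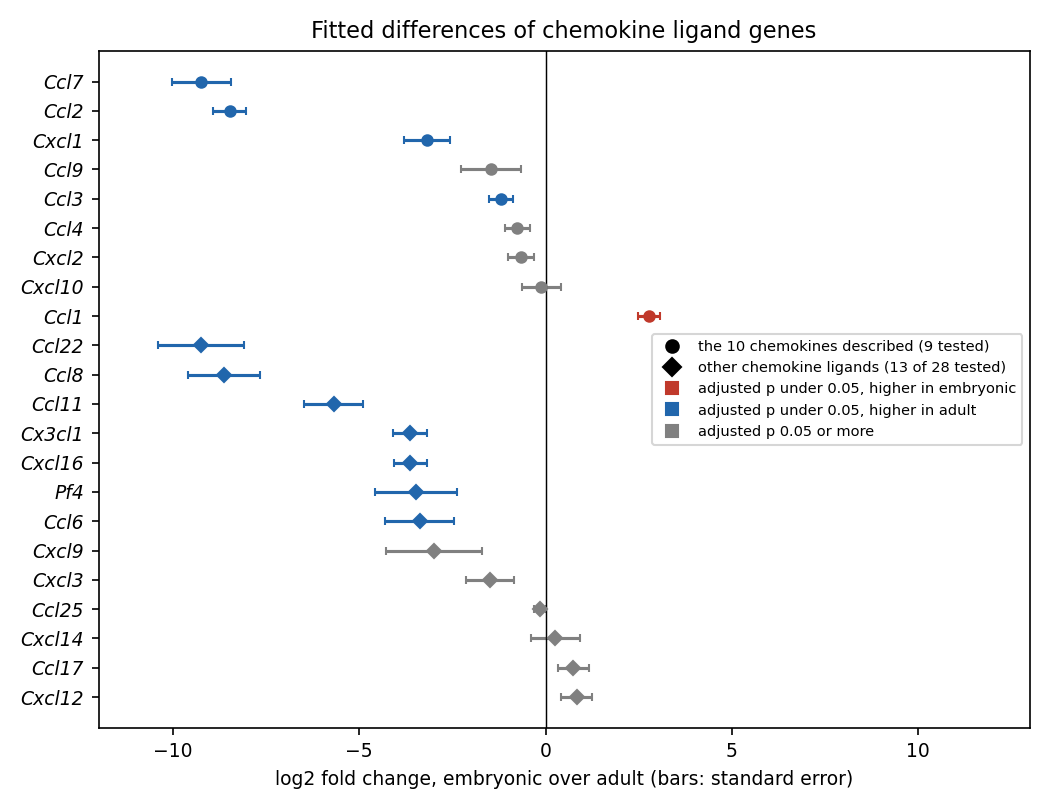
Log2 fold change, embryonic over adult, with its standard error, for the 9 tested chemokines described here (circles) and 13 other tested chemokine ligands (diamonds); colour gives the call at an adjusted p under 0.05. Ccl1 is the one gene called to the right of 0, at 2.78, while Ccl7 and Ccl2 lie at -9.24 and -8.48.

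Levels per exon length gave each population its own order. In embryonic cells Ccl4 (57.8 TPM), Ccl1 (48.2 TPM), Ccl7 (42.8 TPM) and Cxcl2 (37.9 TPM) led, and neighbours among these 4 overlapped between libraries. Ccl3 followed at 16.9 TPM and Ccl2 at 7.88 TPM, and Cxcl10, Cxcl1 and Ccl9 had means of 1.47, 1.01 and 0.701 TPM. In adult cells Ccl7 led at 26719 TPM and ranked 3 of 47643 genes, against rank 3529 in embryonic cells. Ccl2 came next at 2914 TPM, rank 23, against rank 8119 in embryonic cells. Neither overlapped its neighbour in the order. Ccl4 (99.9 TPM), Cxcl2 (60.5 TPM) and Ccl3 (39.0 TPM) followed, with Cxcl2 and Ccl3 overlapping, and Cxcl1 (9.71 TPM) overlapped Ccl1 (7.13 TPM). Ccl9, Cxcl10 and Ccl12 closed the order at 2.02, 1.63 and 0.774 TPM.

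The 10 genes summed to 182, 141 and 321 TPM in the embryonic and 27145, 29173 and 33243 TPM in the adult libraries. In adult cells nearly all of this was 2 genes: Ccl7 made up 88.7 to 90.7% and Ccl2 8.52 to 10.6% of the sum. In embryonic cells the sum was spread over more genes. The CCR2 ligands held 11.9 to 32.2% of it, against 99.2 to 99.3% in adult cells. The CCR8 ligand Ccl1 held 17.9 to 29.4%, against 0.020 to 0.028% in adult cells. Ccl3, Ccl4 and Ccl9 together held 34.2 to 35.6% of the embryonic sum, at 62.1, 50.2 and 114 TPM, and stood at 123, 146 and 154 TPM in the adult libraries. These shares are levels in a sum that Ccl7 dominates in adult cells, so a low adult share does not by itself mean a lower level.

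**Figure D3:**
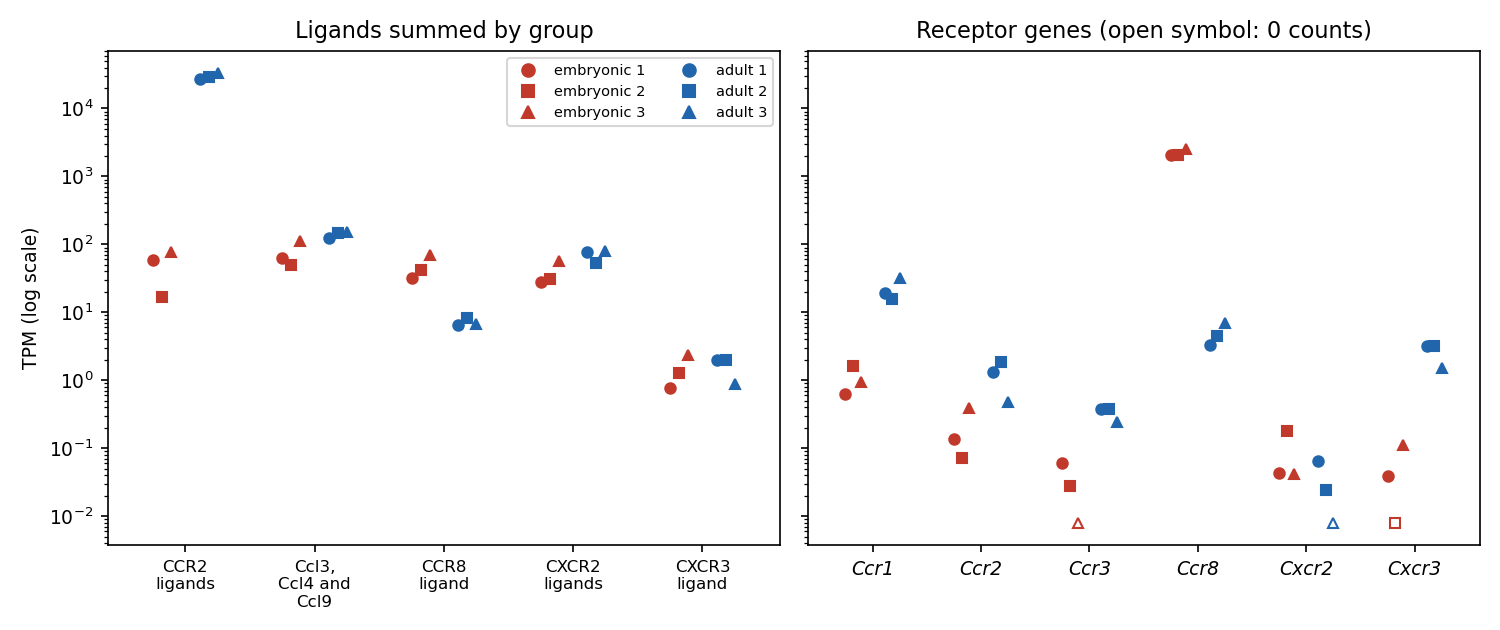
TPM on a log axis of the chemokines summed by group (left) and of 6 receptor genes (right), one point per library, embryonic in red and adult in blue. CCR2 ligands reach 26936 to 33003 TPM in adult against 16.8 to 76.6 TPM in embryonic libraries, and Ccr8 shows the opposite order.

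Of 6 receptor genes for these ligands, 5 were tested: Ccr8 was higher in embryonic cells, and Ccr1, Ccr2, Ccr3 and Cxcr3 were higher in adult cells. Over all tested genes, 31.7% were higher in adult cells and 31.2% in embryonic cells. Ccr3 and Cxcr3 were under the filter level of 0.223 CPM in every embryonic library. They entered the test through the adult libraries, so their direction says little. Ccr1, which binds Ccl3, Ccl7 and Ccl9, stood at 0.580, 1.42 and 0.876 CPM in the embryonic and 17.0, 14.01 and 29.6 CPM in the adult libraries. Its log2 fold change was -4.42 ± 0.40 (SE; edgeR adjusted p = 2.3e-05), and no library of one group reached the other. The remaining 3 stayed under 4 CPM in every library: log2 fold changes were -2.55 for Ccr2, -3.37 for Ccr3 and -5.45 for Cxcr3 (edgeR adjusted p = 0.0097, 0.0056 and 0.00016). All 3 rested on few embryonic counts, and without embryonic library 3 the fold became 10.99 for Ccr2 (5.86 with all libraries), 6.64 for Ccr3 (10.4) and 93.8 for Cxcr3 (43.8); without embryonic library 1 it was 22.7 for Ccr3. Cxcr2 had 10 embryonic and 4 adult counts and was not tested. In the adult libraries with these high CCR2 ligand levels, Ccr2 itself had a mean of 2.47 ± 1.39 CPM (SD, n = 3).

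Atypical chemokine receptors bind chemokines without steering migration. Ccrl2, which mast cells are known to carry and which presents chemerin, was 2.45-fold higher in embryonic cells, at 609, 585 and 678 CPM against 214, 280 and 269 CPM (edgeR adjusted p = 1.2e-05). Ackr1, the Duffy receptor, which binds many of these ligands, had 3 embryonic counts in all and 1683 adult counts, a ratio of 556 with a 95% exact interval of 190 to 2697 that covers counting error only. All 3 embryonic counts came from embryonic library 3, and without it the fitted fold went from 488 to 4238, a value that depends on the prior count. Ackr3 gave an adjusted p of 0.072 (edgeR).

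The genes lie in 4 clusters whose neighbouring chemokines did not all follow them. In the Ccl2 to Ccl1 cluster on chromosome 11 all 6 genes of the table are chemokines, and 5 were tested. Ccl2, Ccl7 at 10.14 kb, Ccl11 at 22.25 kb and Ccl8 at 79.61 kb from the start of Ccl2 were higher in adult cells. Ccl1, on the minus strand with its lower coordinate 141.1 kb along, was higher in embryonic cells, so this stretch holds both directions. Levels within it also differed: Ccl8, an eosinophil and monocyte attractant, had 0 embryonic and 151 adult counts, at least 49.8-fold higher against 3 counts over the group, and Ccl11 (eotaxin) had 4 and 220 counts, both far under Ccl2 and Ccl7. In the Ccl5 to Ccl4 cluster, 4 of 5 chemokines were tested and 2, Ccl3 and Ccl6, were higher in adult cells. In the Cxcl5 to Cxcl2 cluster on chromosome 5, 4 of 7 were tested and 2, Cxcl1 and Pf4, were higher in adult cells. In the Cxcl9 to Cxcl11 cluster, which holds Cxcl10, 2 of 3 were tested and 0 were called by edgeR, where the adjusted p was 0.072 for Cxcl9 and 0.86 for Cxcl10. Beside these counts, 31.7% of all tested genes were higher in adult cells and 31.2% in embryonic cells. Ccl8 and Ccl11 were under the filter level of 0.223 CPM in every embryonic library, and Ccl6 and Pf4 passed it there in library 3 alone. These 4 genes entered the test through the adult libraries, so their direction says little.

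**Figure D4:**
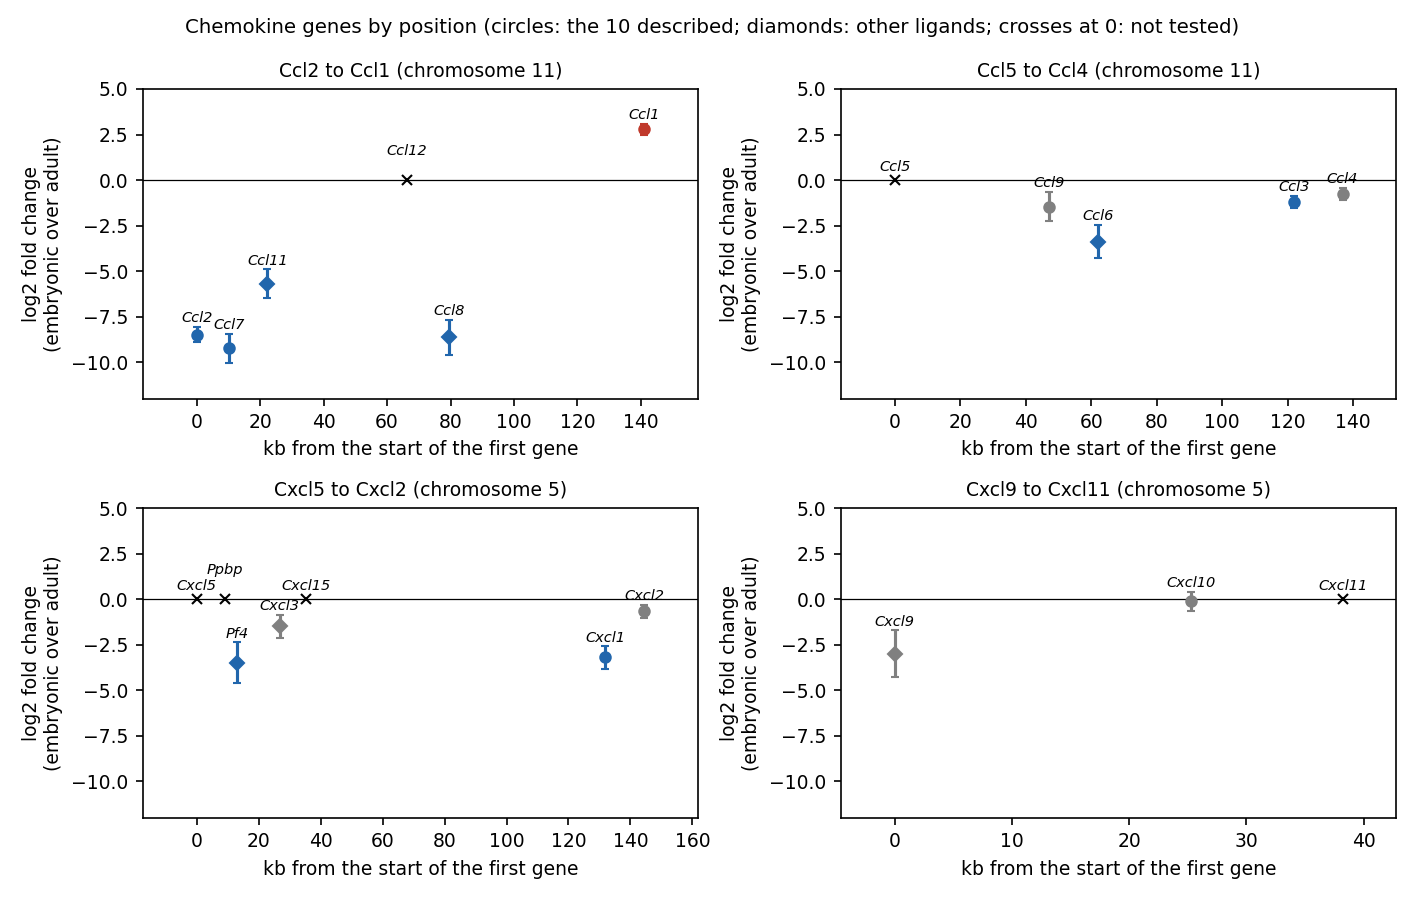
Log2 fold change, embryonic over adult, with its standard error, against distance in kb from the first base of the cluster to each gene's lower coordinate in the 4 clusters; circles are the chemokines described here, diamonds other ligands, crosses at 0 genes not tested; red marks calls higher in embryonic, blue higher in adult and grey no call. The first panel holds Ccl1, at 2.78, on one side of 0 and Ccl2, Ccl7, Ccl8 and Ccl11 on the other.

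Among 28 further chemokine ligands, 13 were tested, 7 were higher in adult cells (Ccl22, Ccl8, Ccl11, Cx3cl1, Cxcl16, Pf4 and Ccl6) and 0 were higher in embryonic cells by edgeR; the other 6 were not called. Of those 7, Ccl22, Ccl8 and Ccl11 were under the filter level of 0.223 CPM in every embryonic library, and Ccl6 and Pf4 passed it among embryonic libraries in library 3 alone. They entered the test through the adult libraries, where they are high, so the count of 7 against 0 says little about the direction of the family. The shares over all tested genes were 31.7% higher in adult cells and 31.2% higher in embryonic cells. Of the 28, 8 had 0 counts in all embryonic libraries. Per length, each of them stood far below Ccl7 and Ccl2 in adult cells, whereas in embryonic cells Ccl17, an attractant of T cells, had a mean of 8.51 TPM beside 7.88 TPM for Ccl2. Cxcl16, a membrane-bound ligand of CXCR6, was the only one with a mean of at least 20 CPM in either group, at 1.42, 1.76 and 3.05 CPM in the embryonic and 35.1, 29.1 and 13.4 CPM in the adult libraries. Its log2 fold change was -3.63 ± 0.44 (SE; edgeR adjusted p = 0.00026), with adult library 3, where Ccl2 and Ccl7 were highest, the lowest of the adult values.

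Genes that act on chemokine transcription and message stability were also compared. Of 17 NF-kB factors and inhibitors, 10 were higher in adult cells, 1 in embryonic cells and 6 were not called, with a median log2 fold change of -0.54. Rela, a subunit of NF-kB, stood at 214 ± 30.1 and 460 ± 26.5 CPM (SD, n = 3 each; log2 fold change -1.10, edgeR adjusted p = 3e-05), and Nfkb1 at 151 ± 43.1 and 536 ± 105 CPM (log2 fold change -1.82, edgeR adjusted p = 0.00016). The inhibitor gene Tnip3 stood at 0, 0.057 and 0 CPM in the embryonic and 6.19, 8.08 and 3.95 CPM in the adult libraries (edgeR adjusted p = 6.7e-06). Tnip3 was under the filter level of 0.223 CPM in every embryonic library and entered the test through the adult ones. Of 7 genes of RNA-binding proteins and nucleases that set the stability of such messages, 4 had the higher level in adult cells and 2 in embryonic cells. Rc3h1 (Roquin-1), Zfp36l1 and Zc3h12a (Regnase-1) were 2.53-fold, 2.13-fold and 2.56-fold higher in adult cells (edgeR adjusted p = 7.4e-06, 3.9e-05 and 0.00055). Khsrp and Elavl1 went the other way, 1.68-fold and 1.37-fold higher in embryonic cells (edgeR adjusted p = 0.00083 and 0.0036). Zfp36 was not called (edgeR adjusted p = 0.89). For both lists, the shares to compare are those of all tested genes, 31.7% (adult higher) and 31.2% (embryonic higher). The log2 fold changes of all tested genes had their median at -0.02.

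Immediate early genes, which switch on within minutes of a stimulus and also during enzymatic digestion of tissue, were higher in adult cells for 11 of 18, higher in embryonic cells for 1 and not called for 6, with a median log2 fold change of -1.53. Atf3 stood at 8.35, 8.47 and 16.0 CPM in the embryonic and 965, 905 and 1536 CPM in the adult libraries (log2 fold change -6.69 ± 0.40 SE, edgeR adjusted p = 1.1e-05). Egr2 and Jund were 4.15-fold and 3.81-fold higher in adult cells (edgeR adjusted p = 2.7e-06 and 1.5e-05). The list summed to 14351, 17104 and 28338 CPM in the embryonic and 38620, 46650 and 50030 CPM in the adult libraries, highest in library 3 of each group. Its part in the chemokine differences was not tested. The shares over all tested genes were 31.7% higher in adult cells and 31.2% higher in embryonic cells, and the median log2 fold change was -0.02. Of 14 tested interferon targets, 9 were higher in adult cells, 0 in embryonic cells (edgeR) and 5 were not called. Irf7, Oasl2 and Irf1 were 6.12-fold, 25.4-fold and 2.65-fold higher in adult cells (edgeR adjusted p = 1.8e-07, 6.1e-07 and 2.6e-06), whereas the interferon-induced ligand Cxcl10 was at 1.06 and 1.15 CPM.

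Embryonic library 3 stood apart for these genes. Every one of the 9 chemokines with embryonic counts was highest there, while 36.0% of all tested genes were highest in that library. The 18 immediate early genes, the 8 keratinocyte markers and the 8 endothelial markers were likewise each highest there among the embryonic libraries. So were 9 of 11 dendritic cell and 10 of 14 macrophage markers, but 6 of 13 mast cell and 5 of 9 fibroblast markers. Keratinocyte markers summed to 64.5, 128 and 596 CPM in the embryonic and 63.4, 62.4 and 37.0 CPM in the adult libraries, with Krt1 at 19.0, 43.6 and 243 CPM and Krt10 at 18.4, 42.2 and 218 CPM in the embryonic ones. In adult library 3, Ccl9, Cxcl1 and Cxcl10 were the lowest of the adult values, as were 32.6% of tested genes, whereas Ccl2, Ccl7, Ccl3 and Cxcl2, 4 of 9, were the highest, as were 36.8% of tested genes.

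Markers of other cells also differed between the groups. Dendritic and Langerhans cell markers were higher in adult cells for 9 of 11, where the share over all tested genes was 31.7%. None was at 0 in all embryonic libraries, and they summed to 47.4 to 67.1 CPM in the embryonic and 3002, 2657 and 1016 CPM in the adult libraries. Some of the 9 were under the filter level of 0.223 CPM in every embryonic library and entered the test through the adult libraries. Cd74 and H2-Ab1, of antigen presentation, led that list, at 488 to 1429 and 299 to 1033 CPM in adult cells. Macrophage and monocyte markers were called higher in adult cells for 9 of 11 tested, but their sums were alike, at 174 to 225 CPM and 183 to 265 CPM, because Cx3cr1 made up most of the embryonic sum (126 to 198 CPM) and Lyz2 was the most abundant adult gene (62.6 to 168 CPM). Some of these 9 were likewise under the filter level in every embryonic library. In adult library 3, where Ccl2 and Ccl7 were highest, the sums of dendritic cell, macrophage, fibroblast and keratinocyte markers were the lowest of the adult libraries. Macrophages and fibroblasts are also known to make both ligands, and the part of other cells in their levels was not tested. Fibroblast markers summed to 857 to 989 and 633 to 985 CPM, with Pdgfrb and Col3a1 the most abundant. Pdgfrb made up much of the adult sums, at 442, 475 and 533 CPM, and was highest in adult library 3. The other 8 of the 9 markers were lowest there, with Col3a1 at 125, 137 and 25.2 CPM, so the sums understate that fall. The median log2 fold change of the fibroblast markers was 0.72. The groups did not overlap for 5 of 9 with embryonic cells higher (34.5% of all tested genes) and 1 with adult cells higher (35.5%). By edgeR, 2 were called higher in adult cells (31.7% of all tested genes) and 0 in the other direction (31.2%). Col3a1 (edgeR adjusted p = 0.076) was called higher in embryonic cells without adult library 3 (edgeR adjusted p = 0.00011).

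The remaining lists were low or shared with mast cells. Endothelial markers summed to 26.4 to 35.4 and 5.45 to 13.7 CPM, led by Pecam1 and Vwf. Markers of T and NK cells summed to 23.7 to 31.1 and 7.97 to 9.19 CPM, led by Nkg7 and Cd3g. Nkg7 made up most of these sums, at 28.2, 27.5 and 21.0 CPM in the embryonic and 5.95, 7.41 and 6.92 CPM in the adult libraries. Cd3e and Trbc1 went the other way on few counts and were not tested. Cd3e had 0, 0 and 1 embryonic and 24, 13 and 5 adult counts, and Trbc1 had 0, 0 and 2 against 18, 7 and 10. Neutrophil markers summed to 1.52 to 1.93 and 1.95 to 3.35 CPM, led by Mmp8 and Mmp9. Basophil markers, led by Cd200r3 and Gzmb, summed to 1075 to 1259 and 866 to 1048 CPM. These sums hide opposite differences. Prss34 stood at 415, 344 and 276 CPM in the embryonic and 1.15, 0.808 and 0.974 CPM in the adult libraries (edgeR adjusted p = 6.6e-09). Mcpt8 was 3.70-fold higher in embryonic cells and Itga2 2.71-fold higher in adult cells (edgeR adjusted p = 6.5e-06 and 0.00044). Cd200r3 and Gzmb were not called. In these bulk libraries, RNA from a few cells of another type and less RNA per mast cell cannot be told apart.

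**Figure D5:**
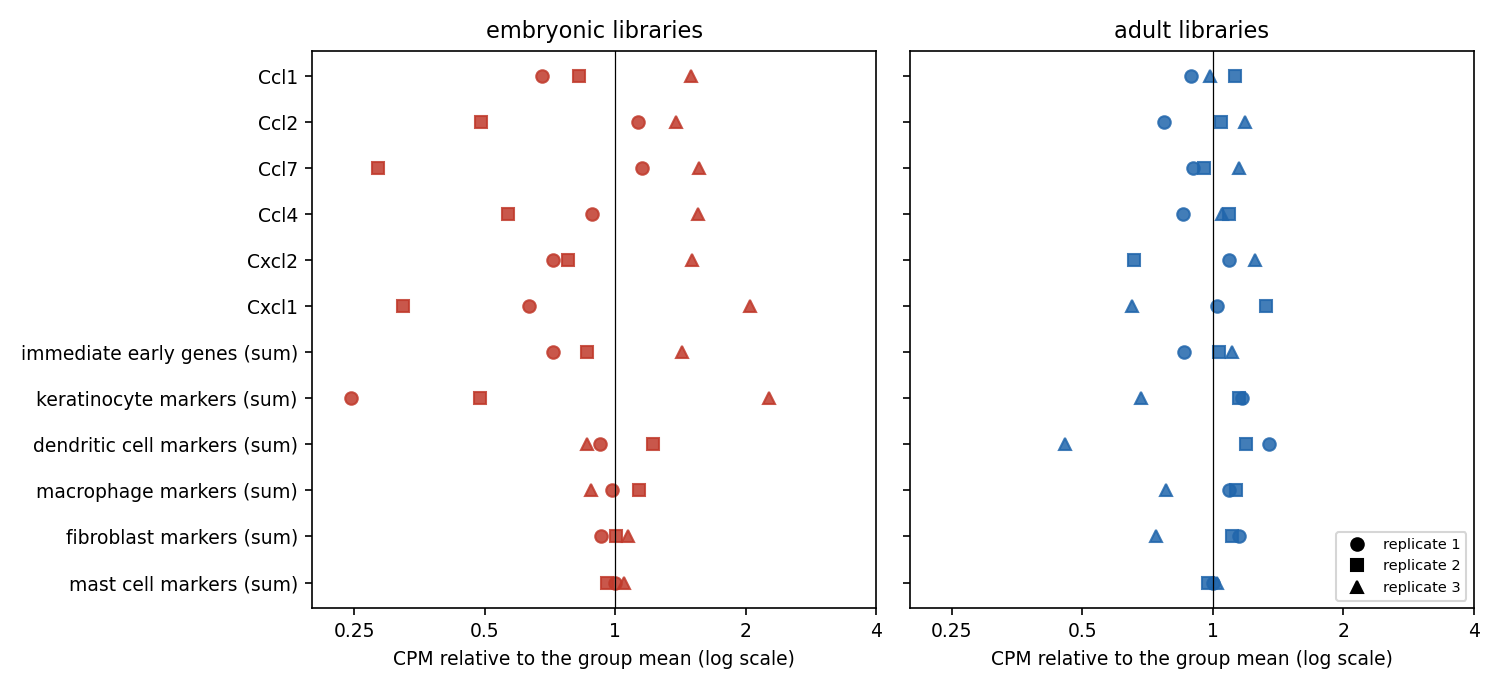
CPM of each library relative to its group mean, on a log axis, for 6 chemokines and for summed marker lists, with embryonic libraries on the left and adult libraries on the right and symbols for replicates 1 to 3. Embryonic replicate 3 lies to the right for the chemokines, the immediate early genes and the keratinocyte markers, and adult replicate 3 to the left for the dendritic cell, macrophage and fibroblast markers.

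For 8 of the tested chemokines, the gene of most similar profile over the 6 libraries was taken as the one with the smallest Euclidean distance between mean-centred log2 CPM values. Nearest to Ccl7 was Ighm, an immunoglobulin heavy chain gene (distance 0.653), which averaged 0.487 CPM in embryonic cells and 282 CPM in adult cells. Nearest to Ccl9 was Hspa1b, a heat shock gene (0.667), which stood at 25.5, 105 and 344 CPM in the embryonic libraries and like Ccl9 was highest in embryonic library 3. Cxcl1 lay nearest to Ly86 (0.693), a partner of the Toll-like receptor homologue CD180. For Ccl1, Ccl3, Ccl4, Cxcl2 and Cxcl10 the nearest were Gm37370 (0.442), Gm6225 (0.318), Ang (0.309), Proz (0.230) and Khdrbs3 (0.296), all genes of low level. With 6 libraries in 2 groups, these distances mostly restate the contrast between the groups.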

How the data were processed

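RNA was measured in 3 embryonic and 3 adult libraries of sorted skin mast cells, made with a full-length cDNA kit and tagmentation, per the labels' protocols. The authors deposited gene-level read counts, made, per the file headers, with featureCounts 1.5.0-p1 over exons of GENCODE M9 without strand and with marked duplicates ignored. Multi-mapped reads were left out. The table's exon length column, also deposited by the authors, gave TPM. Per the submitters' processing notes, STAR, edgeR and GRCm38 (mm10) were used (versions: not given in the sources used here; likewise whether duplicates were marked). Ignored duplicates would cap very abundant genes such as Ccl7. Reads carry no molecular identifiers.

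Symbols came by gene ID from GENCODE M21 on the same assembly (47224 matched, 419 did not). The test was edgeR 4.0.16 under R 4.3.3: TMM factors, filterByExpr (minimum count 10), glmQLFit with robust estimation, then glmQLFTest, with Benjamini-Hochberg adjustment over 15111 genes and a threshold of 0.05. The SE of a log2 fold change is its size over the square root of F. The biological coefficient of variation was 22.5%, and chi-square per degree of freedom within groups was 37.8 to 99.2, above counting noise. All 6 sample columns were used. Across all tested genes, TMM and RLE each put the median at -0.02 (log2) and upper quartile scaling at -0.04.

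Members and lists were chosen with earlier results of these data known; lists were described, not tested. Named were all 10 members; other ligands with at least 20 CPM; the receptors; the 3 smallest adjusted p-values of each related list; the 2 most abundant genes of each other-cell list; and each member's nearest profile; 2 genes that this rule names are not reported here. Other genes of the clusters and the basophil markers Prss34, Mcpt8 and Itga2 were named after their values were seen. So were Fcer1a, Cd3e, Trbc1, Elavl1, Khsrp and Zfp36. Alternatives were RLE and upper quartile scaling, 2 other filters, DESeq2 1.42.0, limma-voom (limma 3.58.1), edgeR without robust estimation, a replicate block, leaving out each library, a threshold of 0.01 and, added after seeing the data, leaving out library 3 of both groups. In simulated data of this comparison with 200 of 15111 genes changed, edgeR recovered 4% of those changed 1.5-fold, 48% at 2-fold, 98% at 4-fold and 100% at 8-fold, and 4.58% of calls were false.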

Additional observations from a re-analysis of the deposited data

How the results depend on the processing

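Ccl1, Ccl2, Ccl3, Ccl7 and Cxcl1 kept their direction and call under all 15 alternatives fitted to single genes, and 3 members were higher in adult cells at a threshold of 0.01. The count of members higher in adult cells was 4 in the main fit. It was 6 with DESeq2, 6 with limma-voom and 6 with the replicate block. It was 7 with all genes of at least 1 count, 7 without embryonic replicate 3 and 7 without library 3 of both groups, a setting added after seeing the data. Over the fits that left out 1 library it ran from 4 to 7. Members higher in embryonic cells numbered 1 in every setting. Other ligands higher in adult cells numbered 7, but 12 with at least 1 count, 3 with at least 1 CPM in 3 libraries and 11 without library 3 of both groups; those higher in embryonic cells numbered 0, and 1 with at least 1 count. Fewer or more genes entered the test under those filters. Ccl12 could be fitted only with genes of at least 1 count (log2 fold change -5.52, edgeR adjusted p = 0.012). Ccl4 was called under 6 alternatives (log2 fold changes over all 15 from -1.18 to -0.43), Ccl9 under 4 (-3.36 to -0.93) and Cxcl2 under 4 (-1.03 to -0.43). Cxcl10, which ran from -0.65 to 0.22 over the fits that left out 1 library, turned to 0.22 and 0.04 without embryonic replicates 1 and 2, and to 0.05 and 0.03 without adult replicates 1 and 2. Of 37 other genes named, Gzmb (-0.14; -0.49 to 0.23 without 1 library) turned without embryonic replicate 1 and, to 0.09, without adult replicate 3, and Cd200r3 (0.04; -0.048 to 0.15 without 1 library) turned without adult replicate 3 and, to -0.012, without library 3 of both groups; Krt10 and Vwf lost their calls in 7 fits in all, and Col3a1 and Ackr3 gained one in 7 (5 for Col3a1, 2 for Ackr3). The cause was not tested.

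Same-numbered libraries deviated from their group means with correlations of -0.122, -0.079 and -0.133, so no shared effect of the number was seen. The labels do not say whether same-numbered libraries were collected together, and these correlations cannot settle it. With the replicate block, Ccl4 (log2 fold change -0.86, edgeR adjusted p = 0.042) and Cxcl2 (-0.69, edgeR adjusted p = 0.018) were also called, giving 6 members higher in adult cells. Depth limits genes with under 100 counts in at least 1 group, among them Ccl12, Ccl9, Cxcl1, Ccr2, Ccr3, Cxcr2, Cxcr3 and Ackr1.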
